A study of Mus musculus with 2 samples.

Results

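The Hox genes, which encode homeodomain transcription factors, were followed through the Isl1 lineage of the mouse embryo at E13.5. Members were every gene of the count tables whose symbol was Hoxa, Hoxb, Hoxc or Hoxd followed by a number, which gave 39 of 32285 genes, and the rule used no measured value. Cells carrying the eYFP reporter were sorted from Isl1-Cre;R26R-eYFP embryos (control) and from Isl1-Cre;R26R-eYFP;Pik3caH1047R embryos (mutant). Both genotypes carried the Isl1-Cre driver and the R26R-eYFP reporter, and the mutant carried in addition the Pik3caH1047R transgene. This transgene is switched on by Cre and encodes an activated form of a catalytic subunit of PI3-kinase. Cre came from the Isl1 locus, so recombination marks every descendant of an Isl1-expressing cell, including motor and sensory neurons, limb and gut mesenchyme as well as cardiopharyngeal mesoderm. Each genotype was 1 library made from 3 pooled embryos, and the dissected material was the upper body above the liver although the labels call the tissue pharyngeal arch. The tables hold no feature for eYFP, Cre or the transgene, so the genotype was not checked from the counts. With 1 library per genotype no test between genotypes exists, no p-value is given, and every interval below covers counting error only.

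Hox genes lie in clusters and are numbered by paralogue group, with low numbers at the 3′ end of a cluster and high numbers at the 5′ end. Low-numbered genes are expressed from the hindbrain and pharyngeal region backwards, and higher numbers start at progressively more caudal levels, so that the set of Hox genes a cell expresses reports the axial level its tissue came from. The 5′ genes of the HoxA and HoxD clusters are used again along the limb. Forebrain, midbrain, the frontonasal tissue and the 1st pharyngeal arch are classically free of Hox expression. The 39 genes fall into 13 paralogue groups in 4 clusters, which GENCODE annotation of GRCm38 places on chromosome 6 (HoxA, minus strand), 11 (HoxB, plus), 15 (HoxC, plus) and 2 (HoxD, plus).

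Upstream sequences are shown for the 4 genes on which the results below turn: Hoxd8, which was lower in the mutant library in the most classes, Hoxa9, which was higher in 3 classes, Hoxa5, which led the mesothelium-like cells, and Hoxb8, the most abundant Hox gene of the neuron-like cells. Each run is the 250 bases before the RefSeq start on the strand of the gene in GRCm38.p6, and capitals mark letters of a searched motif on either strand. Hoxd8 spans chr2:74704365-74704614 (+), Hoxa5 chr6:52204588-52204837 (-), Hoxa9 chr6:52227371-52227620 (-) and Hoxb8 chr11:96281655-96281904 (+).
Hoxd8: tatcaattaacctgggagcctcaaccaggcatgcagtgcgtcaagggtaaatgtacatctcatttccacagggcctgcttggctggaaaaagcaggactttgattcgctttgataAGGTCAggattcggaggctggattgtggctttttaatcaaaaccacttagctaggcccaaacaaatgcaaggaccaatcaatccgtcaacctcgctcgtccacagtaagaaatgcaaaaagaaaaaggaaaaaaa
Hoxa5: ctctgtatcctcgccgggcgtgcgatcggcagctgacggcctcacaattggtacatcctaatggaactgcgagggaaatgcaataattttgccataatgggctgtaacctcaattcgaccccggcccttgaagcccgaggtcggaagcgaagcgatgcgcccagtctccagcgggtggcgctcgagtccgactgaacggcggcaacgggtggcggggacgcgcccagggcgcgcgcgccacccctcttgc
Hoxa9: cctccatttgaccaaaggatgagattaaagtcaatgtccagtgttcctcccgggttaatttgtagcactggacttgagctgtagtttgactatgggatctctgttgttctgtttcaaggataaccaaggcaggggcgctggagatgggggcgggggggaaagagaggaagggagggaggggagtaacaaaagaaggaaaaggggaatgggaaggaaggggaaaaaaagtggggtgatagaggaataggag
Hoxb8: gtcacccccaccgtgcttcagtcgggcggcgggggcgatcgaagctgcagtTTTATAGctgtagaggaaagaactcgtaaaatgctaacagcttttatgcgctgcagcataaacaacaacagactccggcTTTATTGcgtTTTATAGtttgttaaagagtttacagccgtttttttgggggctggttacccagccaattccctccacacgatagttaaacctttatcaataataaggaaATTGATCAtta
The motifs searched were TGATNNAT (paired PBX and HOX site), TGACAG (MEIS), TTTATNG (CDX) and AGGTCA, each on both strands. AGGTCA is a single repeat unit of a retinoic acid receptor element and not a whole element. The Hoxb8 window held 1 PBX-HOX match and 3 CDX matches, the Hoxd8 window held 1 AGGTCA, and the Hoxa5 and Hoxa9 windows held none of the motifs. Over all 32536 windows of this length the PBX-HOX letters were found in 7.66%, the MEIS letters in 15.8%, the CDX letters in 9.74% and AGGTCA in 14%. Among the 24 windows of Hox genes, which cover 22 of the 39 members, they were found in 16.7%, 8.33%, 8.33% and 25% respectively. These matches describe the letters of the windows and not binding.

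After filtering, 2783 control and 3489 mutant cells remained of 4505 and 5357 deposited barcodes, with a median of 20412 and 16839 UMIs (unique molecular identifiers, which count captured transcripts) and 63153191 and 69717583 UMIs in all. The libraries shared 28 cell barcodes. Cells were grouped into 13 classes named "-like" from marker genes, since no annotation was given, and 10 classes with at least 50 cells in each library were compared. Cells were called female-like by a UMI of Xist in the absence of any from 4 Y-linked genes. Of the control cells 95.5% were female-like, whereas 33.6% of the mutant cells were female-like and 53.3% male-like (the reverse), so the pools differed in embryo sex. The summed Hox levels of classes and Hox clusters and the called members were therefore also computed with either part of the mutant library. Other differences below, among them those of list genes, of shares of cells and of paired genes, are given without this split. A hepatoblast-like cluster of 47 cells was present only in the mutant library, although the dissected material was the upper body above the liver. Whether the embryos of both libraries were cut at the same axial level was not tested. Genotype and level of the cut therefore cannot be told apart in the differences below. Levels are given as UMIs per 1000000 UMIs of the class (CPM, which here does not stand for cardiopharyngeal mesoderm), with an exact Poisson interval at 95%.

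Over all cells, 37 of the 39 members had a UMI in the control library and 37 in the mutant library. Hoxc12, a posterior gene, had none in either, and 0 of 2783 and 0 of 3489 cells allow a share of cells with a UMI of up to 0.108% and 0.0860%. Hoxc10 was seen only in the mutant library (7 UMIs in 3 cells) and Hoxb13 only in the control library (1 UMI). All Hox genes together made up 322 CPM of the control library (317 to 326) and 247 CPM of the mutant library (243 to 251). The most abundant members in the control library were Hoxb5 at 40.9 CPM, Hoxa5 at 36.2, Hoxb2 at 28.1 and Hoxb4 at 28.0. In the mutant library the same genes stood at 12.5, 17.4, 17.9 and 19.4 CPM, while Hoxa9 stood at 18.0 against 11, Hoxb8 at 12.6 against 7.66 and Hoxb9 at 7.43 against 1.95. These sums mix classes in different proportions, for lung/foregut mesenchyme-like cells numbered 369 in the control and 133 in the mutant library and neuron-like cells 126 and 336, so the code is described below class by class.

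**Figure D1:**
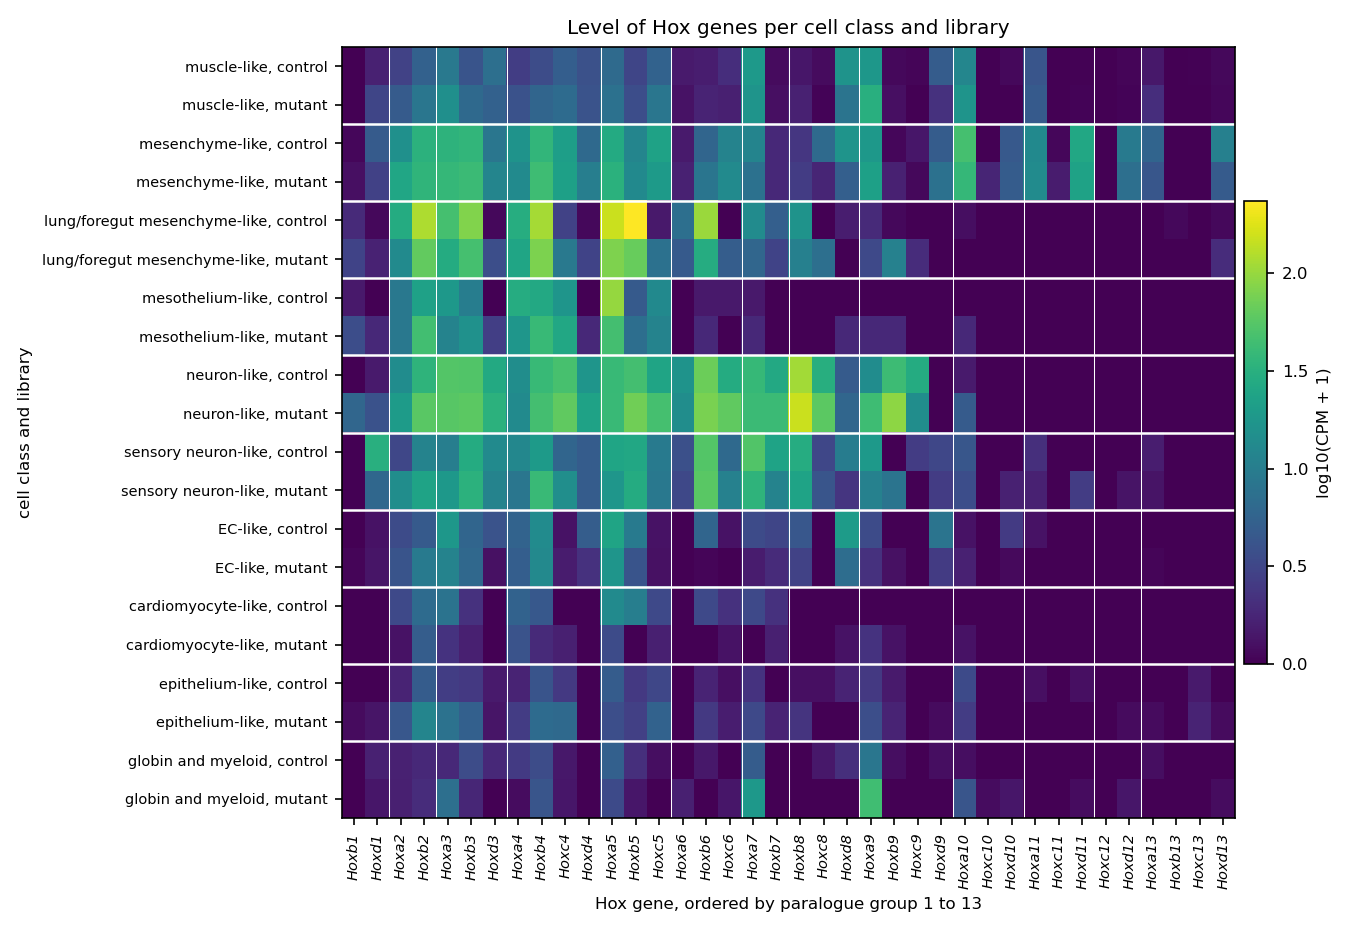
Heat map of log10(CPM + 1) for the Hox genes reported here, ordered by paralogue group, in the 10 compared classes, with the control and mutant library side by side. Lung/foregut mesenchyme-like cells carry genes of groups 1 to 8 of HoxA and HoxB, neuron-like cells reach group 9, mesenchyme-like cells carry groups 10 to 13 of HoxA and HoxD, and cardiomyocyte-like and epithelium-like cells are nearly blank.

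The classes differed widely in how much Hox RNA they held. In the control library the summed level ran from 30.4 CPM in epithelium-like cells and 31.1 in the globin and myeloid cluster to 803 in neuron-like and 947 in lung/foregut mesenchyme-like cells. Cell types with little Hox RNA of their own serve as a rough reference for free RNA, which was not measured itself. Hepatoblast-like cells, known by Afp and Alb, held 15.9 CPM (10.8 to 22.7, 30 UMIs), and a finer macrophage cluster held 16.3 CPM in the control and 10.1 in the mutant library. A class was said to reach a paralogue group when the lower bound of that group's summed level exceeded 10 CPM. By this measure the caudal limit of the control library was group 5 in mesothelium-like and cardiomyocyte-like cells and group 8 in lung/foregut mesenchyme-like and EC-like (endothelial) cells. It was group 9 in neuron-like and sensory neuron-like cells, 10 in muscle-like cells and 13 in mesenchyme-like cells. Groups 10 to 13 of HoxA and HoxD are also used along the limb. In muscle-like and mesenchyme-like cells the limit is therefore the highest group reached and is not read as an axial level. Epithelium-like cells and the globin and myeloid cluster reached no group. In the mutant library the limit was the same in muscle-like, lung/foregut mesenchyme-like, mesothelium-like, neuron-like and sensory neuron-like cells. It was 11 in mesenchyme-like, 5 in EC-like, 4 in epithelium-like cells and 9 in the globin and myeloid cluster, and cardiomyocyte-like cells reached none.

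**Figure D2:**
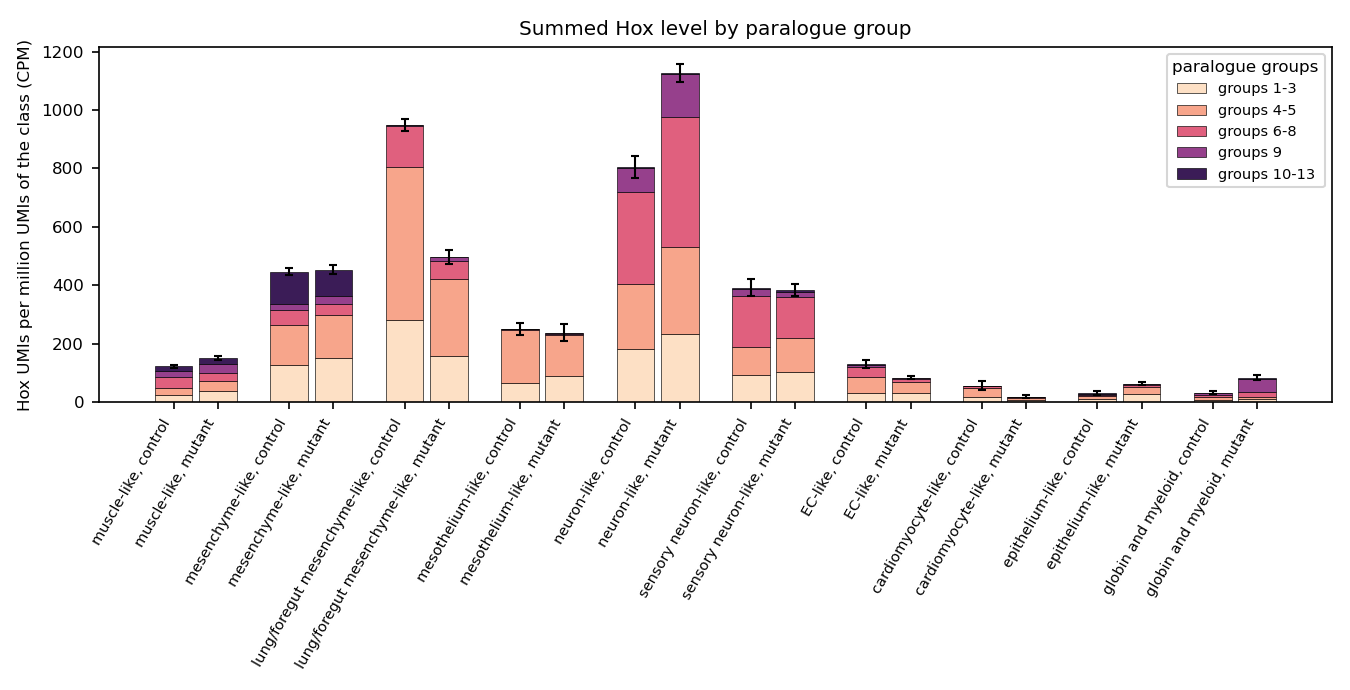
Stacked bars of summed Hox CPM by paralogue groups 1-3, 4-5, 6-8, 9 and 10-13 for each class in the control and mutant library, where error bars are the 95% Poisson interval of the total. Lung/foregut mesenchyme-like cells stand at 947 and 496 CPM, neuron-like cells at 803 and 1127, and mesenchyme-like cells at 446 and 453.

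The profile over the 39 genes was compared between the libraries as a description. Of the 10 control classes, 8 had their highest Spearman correlation over the 39 genes with the same class of the mutant library, from 0.82 in epithelium-like to 0.96 in muscle-like cells. The next class was close in some, at 0.79 with mesothelium-like cells for epithelium-like cells, 0.78 with the same for lung/foregut mesenchyme-like cells and 0.86 with lung/foregut mesenchyme-like cells for neuron-like cells (0.94 with their own), and farther in others, at 0.74 for muscle-like cells. Cardiomyocyte-like cells (0.59 with their own class, 0.76 with lung/foregut mesenchyme-like cells) and the globin and myeloid cluster (0.53, and 0.77 with mesothelium-like cells) were the exceptions. The points of these correlations are genes of shared libraries and not replicates.

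Differences between the libraries were counted among genes with at least 20 UMIs in a class over both libraries. A gene was called when the whole 95% interval of its mutant to control ratio lay beyond 1.5-fold. Of the 39 members 34 were tested in some class, and in 153 gene and class pairs 17 were higher and 18 lower in the mutant library. In all 20 members were called in at least 1 class, and 3 of them, Hoxd1, Hoxa2 and Hoxb2, in both directions. The calls are also given by cluster, where the same gene can count in several classes, as Hoxd8 did in 4 lower pairs and Hoxd9 in 2. HoxD had 9 lower and 1 higher among 23 pairs, HoxA 3 lower and 7 higher among 59, HoxB 5 and 5 among 50, and HoxC 1 lower and 4 higher among 21. By paralogue group, group 9 had 6 higher and 2 lower among 14 pairs and groups 6 to 8 had 2 higher and 6 lower among 34. The share of all tested genes that was called in each class is given with the class. The splits by cluster and group were looked at after the values were known, have no share over all genes beside them and are descriptions only.

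**Figure D3:**
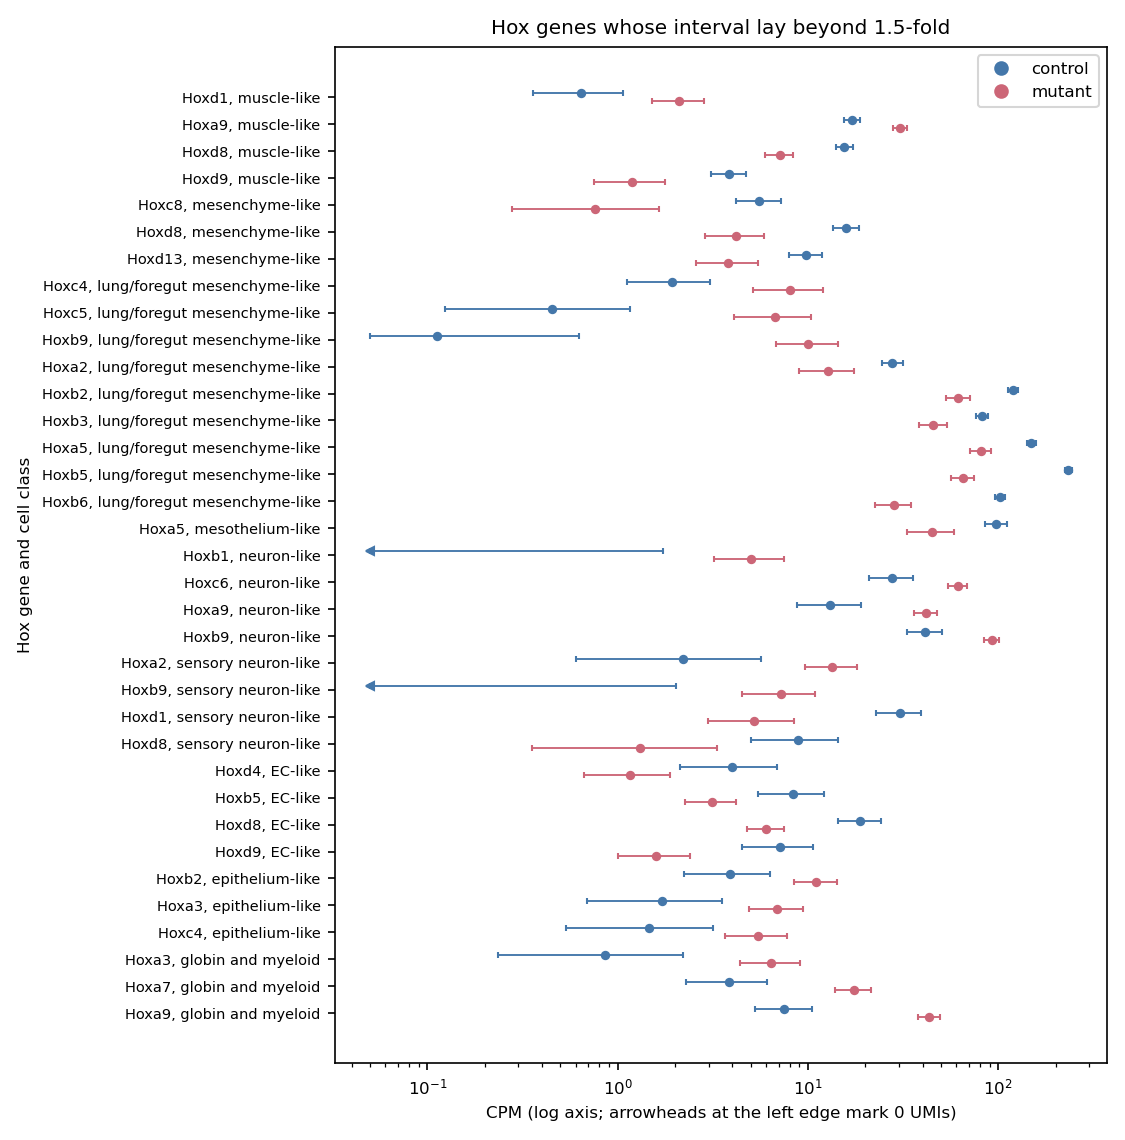
CPM with 95% Poisson intervals in the control and mutant library for the 35 gene and class pairs called beyond 1.5-fold, on a log axis, where an arrowhead at the left edge stands for 0 UMIs. Hoxd8 lies lower in the mutant library in 4 classes, and Hoxb9 lies higher in 3.

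Lung/foregut mesenchyme-like cells, marked by Wnt2 and Tbx4, had the highest Hox level of the control library. Their code reached group 8, and 70.6% of its UMIs in the control library were of HoxB. Hoxb5, a gene used in lung and enteric development, stood at 234 CPM in 89.4% of control cells. Next came Hoxa5, which is needed for normal lung and airway formation, at 149 CPM, Hoxb2 at 119, Hoxb4 at 111, Hoxb6 at 102 and Hoxb3 at 82.5 CPM. The class was not made up alike in the libraries. Of its 3 finer clusters, 1 was led by Gja4 and Eln. Over all its 33 control and 141 mutant cells it raised 13 of 14 EC markers and 5 of 9 smooth muscle/mural markers. It held 15 of the 369 control cells but 53 of the 133 mutant cells of this class, at 217 and 171 CPM of Hox. Another 18 and 87 of its cells lay in the EC-like class. The cells in this class are called EC-named after the finer cluster, and whether they were endothelial or mural was not tested. The largest finer cluster (272 and 69 cells) held 958 and 645 CPM, and the remaining one (82 and 11 cells) 1016 and 1022. The sum and the called members are therefore given with and without the EC-named cells.

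In the mutant library the summed level of the class was 496 CPM (471 to 522) against 947 (927 to 968), a log2 ratio of -0.93 (-1.01 to -0.85), and without the EC-named cells the ratio was -0.47 (-0.56 to -0.39). Of 17 members tested 6 were lower and 3 higher in the mutant library, against 2.63% lower and 6.66% higher among all tested genes, and the median log2 ratio was -0.78 against -0.02 over all genes. Hoxb5 had 2071 and 194 UMIs (234 and 65.0 CPM), a log2 ratio of -1.84, and -1.26 (-1.49 to -1.04) without the EC-named cells. Hoxb6 stood at 102 and 28.2 CPM, with -1.86 and -1.25 (-1.60 to -0.92). These neighbours in the HoxB cluster were lower beyond 1.5-fold under every alternative, by which is meant here all 11 that gave an interval for single genes. The other lower members were not, for without the EC-named cells Hoxa2 (27.7 and 12.7 CPM, -1.12) came to -0.58, Hoxb2 (119 and 61.7 CPM, -0.95) to -0.47, Hoxa5 (149 and 80.8 CPM, -0.89) to -0.27 and Hoxb3 (82.5 and 45.6 CPM, -0.86) to -0.32, none of them called. Hoxb4 was not called in the whole class at 111 and 78.4 CPM (-0.50, -0.71 to -0.29).

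The higher members of these cells were HoxC and group 9 genes with few UMIs. Hoxc4 had 17 UMIs in the control and 24 in the mutant library (1.92 and 8.04 CPM; 2.07, and 2.53 without the EC-named cells), and Hoxc5 had 4 and 20, of which 11 lay in 1 of 7 cells. Hoxb9 had 1 and 30 UMIs, of which 29 lay in 1 mutant cell, and it was not called without the EC-named cells. The female-like mutant cells of the class numbered 27, of which 19 were EC-named, and held 82.6 CPM, whereas the 94 male-like cells held 612 CPM. Without integration of the libraries the log2 ratio of the sum was -0.24.

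Mesothelium-like cells had the most restricted code of the trunk classes, with groups 1 to 5 and almost nothing beyond. In control cells groups 4 and 5 summed to 184 CPM and groups 1 to 3 to 63.5, while groups 6 to 8 came to 1.38 CPM and group 9 to 0. The total was 249 CPM in the control and 236 in the mutant library (log2 ratio -0.08, -0.30 to 0.13), but the ratio was -0.998 (-1.46 to -0.56) with female-like and 0.29 (0.05 to 0.52) with male-like mutant cells. Hoxa5 led in control cells at 97.5 CPM in 70% of cells and stood at 44.7 CPM in 16.4% of mutant cells (212 and 51 UMIs, -1.12, -1.60 to -0.68). With male-like mutant cells alone the ratio of Hoxa5 was -0.47 (-0.94 to -0.02) and not called. It was the 1 member of 10 tested that was called lower, against 2.49% of all tested genes, and none was called higher against 7.35%. Hoxa4 (28.5 and 16.7 CPM) and Hoxa3 (17.5 and 10.5) lay in the same direction without being called. Hoxb2 (21.6 and 43.9 CPM), Hoxb4 (26.2 and 38.6) and Hoxc4 (16.1 and 25.4) lay in the other. HoxA genes made up 63.7% of the class's Hox UMIs in the control and 37.2% in the mutant library, and HoxB genes 24.7% and 45.7%. The median depth of these cells was 28114 UMIs in the control and 14430 in the mutant library.

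**Figure D4:**
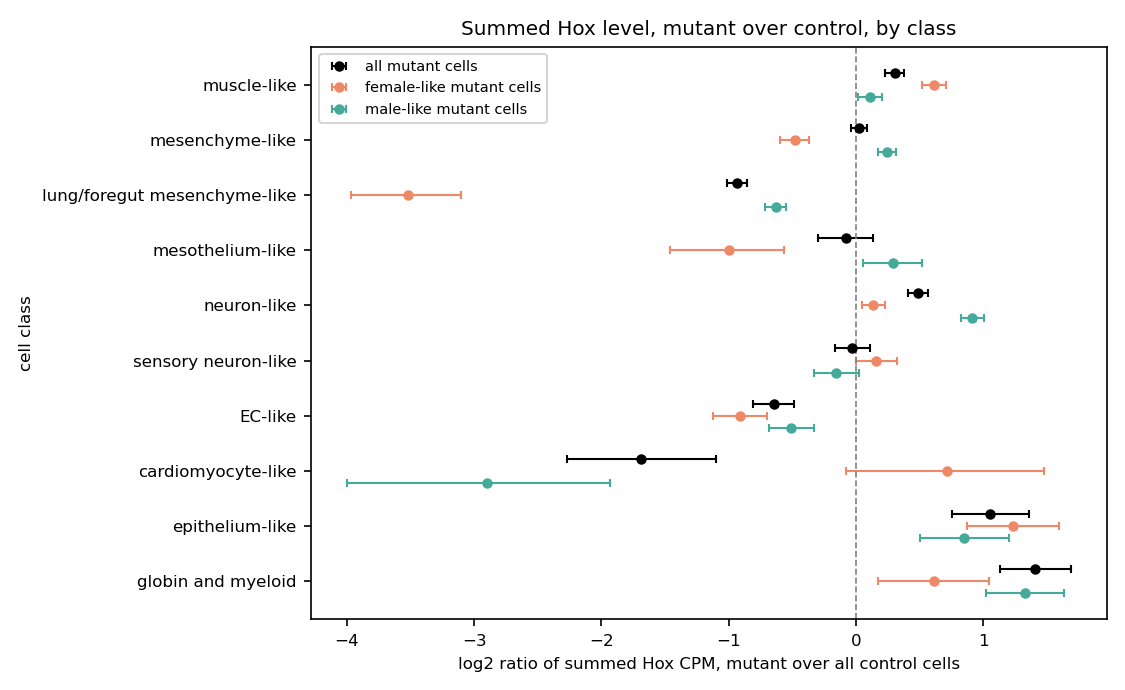
Log2 ratio of summed Hox CPM, mutant over control, with 95% intervals for each class, computed with all mutant cells, with female-like and with male-like mutant cells. Lung/foregut mesenchyme-like, EC-like, epithelium-like, neuron-like and muscle-like cells and the globin and myeloid cluster keep 1 sign in all 3, whereas mesenchyme-like, mesothelium-like, sensory neuron-like and cardiomyocyte-like cells do not.

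Neuron-like cells reached 8 paralogue groups, up to group 9, in both libraries. Hoxb8, a gene of the cervical and thoracic cord, led at 109 CPM in the control and 149 in the mutant library. It was followed by Hoxb6 (67.8 and 77.2 CPM), Hoxc4 (47.3 and 60.7), Hoxb5 (45.4 and 71.6) and Hoxb9 (41.2 and 92.3). The summed level was 803 CPM (765 to 842) and 1127 (1097 to 1158), a log2 ratio of 0.49 (0.41 to 0.57), and the ratio was above 0 for 21 of 24 members tested. Called higher were 4 members, against 1.88% of all tested genes, and none lower against 6.05%. Hoxa9 stood at 13.1 and 41.7 CPM (28 and 199 UMIs, log2 ratio 1.67), Hoxb9 at 41.2 and 92.3 (88 and 441 UMIs, 1.16) and Hoxc6 at 27.6 and 61.3 (59 and 293 UMIs, 1.15). Hoxb1, a hindbrain gene, had 0 control UMIs and 24 mutant UMIs in 14 cells, at least 3.58-fold higher than the 3-count floor of the control class. Group 9 as a whole rested at 81.9 CPM in the control and 147 in the mutant library, beside 180 and 234 for groups 1 to 3. Both a hindbrain and a posterior trunk gene were thus among the 4, and no single paralogue group accounted for the difference.

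The neuron-like class held 2 main finer clusters. The larger had 98 control and 312 mutant cells with 970 and 1239 CPM of Hox, and the smaller, led by Cartpt and by Dbh, an enzyme of noradrenaline synthesis, 28 and 23 cells with 367 and 451 CPM. Male-like mutant cells held 1513 CPM and female-like ones 883, so that the log2 ratio to the control was 0.91 and 0.14. With the female-like mutant cells Hoxb1 was not beyond an even ratio and Hoxa9 was not called (0.90, 0.25 to 1.59), while Hoxb9 and Hoxc6 were called under every alternative. Few cells carried these genes. Hoxb9 had a UMI in 11 control and 51 mutant cells, with 21 and 40 UMIs in the top cell. Hoxa9 was seen in 9 and 34 cells and Hoxc6 in 24 and 59. The intervals cover counting error and not the spread between cells. Beside this, 7 of 12 tested genes of Hox-free rostral territories were higher in the mutant neuron-like cells and 1 lower, Dlx2 at 33.2 and 84.3 CPM among them, with Hand2 lower at 156 and 39.6. The class thus held more RNA of both rostral and posterior genes in the mutant library, and the share of cells from each axial level was not tested apart from RNA per cell.

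Sensory neuron-like cells, marked by Neurod1 and Scn9a, had a code centred on groups 6 to 8 at 175 CPM in the control and 140 in the mutant library. Hoxb6 (52.9 and 56.7 CPM) and Hoxa7 (51.8 and 33.6) led, ahead of Hoxb3 (27.6 and 32.3), Hoxb8 (28.1 and 22.5) and Hoxb4 (18.7 and 39.4). The total was 391 and 383 CPM, a log2 ratio of -0.03 (-0.16 to 0.11). Of 20 members tested, 2 were higher and 2 lower, against 3.09% higher and 7.41% lower among all tested genes. The lower count was near that share, and counts this small are not read as a result about the members as a set. Hoxd1, which is known for its expression in nociceptive sensory neurons, stood at 30.3 CPM in 25.8% of control cells and at 5.22 CPM in 5.15% of mutant cells (55 and 16 UMIs, -2.54, -3.44 to -1.71), a call kept under every alternative. Hoxd8 had 16 and 4 UMIs (8.82 and 1.30 CPM), and its call was lost with classes from marker counts and without the highest Scrublet scores. Hoxa2, a 2nd arch and hindbrain gene, lay the other way at 2.21 and 13.4 CPM (4 and 41 UMIs), and Hoxb9 had 0 and 22 UMIs, at least 4.34-fold higher than the control floor. Neither stayed called with classes from marker counts (Hoxa2 at 0.96, -0.20 to 2.36). A small finer cluster of 16 control and 10 mutant cells held 292 and 29.0 CPM, and the main one (50 and 126 cells) 412 and 409.

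EC-like cells had a low code. It reached 4 paralogue groups, up to group 8, in the control library and 3, up to group 5, in the mutant library. Hoxa5 led at 23.4 CPM in the control and 16.2 in the mutant library, with Hoxd8 at 18.8 and 6.01, Hoxa3 at 17.0 and 10.4 and Hoxb4 at 12.95 and 12.1. Hoxd8 alone thus held 18.8 of the 32.1 CPM of groups 6 to 8 in control cells. The summed level was 130 CPM (118 to 143) in the control and 83.0 (78.3 to 88.0) in the mutant library, a log2 ratio of -0.65 (-0.81 to -0.48). The difference lay in groups 4 to 9 and was largest as a ratio in groups 6 to 8. Groups 1 to 3 stood at 32.4 and 32.1 CPM, groups 4 and 5 at 54.0 and 37.5, groups 6 to 8 at 32.1 and 9.48 (-1.76, -2.14 to -1.37) and group 9 at 9.56 and 3.04. Of 15 members tested 4 were lower, against 4.72% of all tested genes, and none higher against 4.61%. They were Hoxd9 (7.09 and 1.59 CPM), Hoxd4 (4.01 and 1.16), Hoxd8 (61 and 83 UMIs, 20.4% and 7.22% of cells) and Hoxb5 (8.33 and 3.11 CPM). Of these Hoxd8 was called under every alternative, Hoxd4 and Hoxb5 were not called under TMM scaling among others, and Hoxd9 was not called with female-like mutant cells (-1.49, -2.63 to -0.42). Hoxb2 was the exception among the named genes at 3.70 and 8.33 CPM (1.17, 0.31 to 2.16) without being called. Of all 15 members tested, 4 had a ratio above 0. All 3 main finer clusters of the class had lower sums in the mutant library, at 128 and 81.4, 141 and 99.7, and 141 and 69.9 CPM.

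Muscle-like cells carried a flat code that reached group 10. In the control library groups 1 to 3 summed to 25.1 CPM, groups 4 and 5 to 23.6, groups 6 to 8 to 36.5, group 9 to 21.1 and groups 10 to 13 to 15.3. Hoxa7 (18.2 CPM), Hoxa9 (17.0), Hoxd8 (15.5), Hoxa10 (11.2) and Hoxa3 (8.11) led. In the mutant library the order was Hoxa9 (30.5), Hoxa10 (15.9), Hoxa7 (15.8), Hoxa3 (14.1), Hoxb2 (7.55) and Hoxd8 (7.09). The total was 122 CPM (117 to 126) and 150 (145 to 156), a log2 ratio of 0.31 (0.23 to 0.38). The finer clusters were not alike. They stood at 130 and 146, 138 and 188, 57.9 and 110, and 80.2 and 93.1 CPM, but another stood at 215 and 179 (-0.27, -0.48 to -0.05). Of 24 members tested 2 were higher and 2 lower, against 7.78% higher and 3.98% lower among all tested genes. Hoxa9, a gene of the posterior trunk and the limb, was higher (397 and 593 UMIs, log2 ratio 0.84, 0.65 to 1.03) in about the same share of cells, 21.1% and 21.9%. Hoxd8 was lower (362 and 138 UMIs, -1.13, -1.43 to -0.85) with a UMI in 25.1% and 10.2% of cells. Hoxd9, beside Hoxd8 in the cluster and a paralogue of Hoxa9, was lower at 3.86 and 1.18 CPM (-1.71). Hoxd1 was higher at 0.644 and 2.11 CPM (15 and 41 UMIs). With male-like mutant cells alone Hoxa9 (0.53, 0.30 to 0.76) and Hoxd8 (-0.89, -1.24 to -0.55) were no longer called, whereas Hoxd9 and Hoxd1 were called under every alternative. The 2 higher calls among 24 members were near the share of all tested genes. Hoxa9 was higher and Hoxd9 lower, and nothing is concluded from these 2 genes about paralogues.

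Mesenchyme-like cells, marked by Twist1 and Prrx1, spanned the whole code. The control library held 128 CPM of groups 1 to 3, 137 of groups 4 and 5, 50.4 of groups 6 to 8, 21.9 of group 9 and 110 of groups 10 to 13, so that groups 6 to 9 formed a trough. Hoxa10 (45.5 CPM in the control and 36.9 in the mutant library), Hoxb4 (35.3 and 42.5), Hoxb3 (35.2 and 40.1), Hoxa3 (33.1 and 37.3), Hoxb2 (32.6 and 34.4) and Hoxa5 (26.9 and 31.8) led. The total was 446 CPM (433 to 459) and 453 (439 to 468), but the log2 ratio was -0.48 (-0.59 to -0.37) with female-like and 0.24 (0.17 to 0.31) with male-like mutant cells. None of 29 members tested was higher, against 4.1% of all tested genes, and 3 were lower against 5.88%. Hoxc8, a thoracic gene, had 57 and 6 UMIs (5.55 and 0.761 CPM), and Hoxd8 163 and 33 UMIs (15.9 and 4.19 CPM, -1.92, -2.51 to -1.38). Hoxd13, which patterns the distal limb, had 100 and 30 UMIs (9.73 and 3.80 CPM, -1.35). Hoxd8 was called under every alternative, Hoxc8 was not without integration (-0.95, -1.69 to -0.25), and Hoxd13 was not with male-like mutant cells (-1.11, -1.86 to -0.42). Groups 10 to 13 stood at 110 and 90.6 CPM. The finer clusters lay in opposite directions. The one led by cartilage genes held 352 CPM of Hox in the control and 516 in the mutant library (log2 ratio 0.55, 0.41 to 0.69). The larger one, over all its 387 control and 368 mutant cells, held 473 and 435 CPM (-0.12, -0.19 to -0.05). Groups 10 to 13 stood at 35.3 and 82.5 CPM in the cartilage cluster and at 135 and 92.0 in the larger one.

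Hox levels in the remaining classes were low. Cardiomyocyte-like cells held 55.4 CPM in the control (40.9 to 73.5, 48 UMIs) and 17.2 in the mutant library (13.01 to 22.4, 56 UMIs), the second at the level of the hepatoblast-like cells. Hoxa5 (11 and 8 UMIs), Hoxb5 (8 and 0) and Hoxa3 led, no member reached the 20-UMI minimum, and 1.71% of all tested genes were called higher and 4.12% lower. The log2 ratio of -1.69 became 0.72 with female-like mutant cells and 0.60 after thinning to equal depth, so it has no stable direction. Both values rest on few cells. The female-like mutant cells numbered 12 with 22 UMIs, and in this class only 11 of 54 control cells could be called female-like. After thinning, 5.56% of the 54 control cells had a Hox UMI. Epithelium-like cells held 30.4 CPM in the control and 63.1 in the mutant library (1.05, 0.75 to 1.36). Of 9 members tested 3 were higher, against 3.56% of all tested genes, and none lower against 3.89%, and all were rostral genes. Hoxb2 stood at 3.90 and 11.1 CPM, Hoxa3, which is needed for the derivatives of the 3rd pharyngeal pouch, at 1.70 and 6.89, and Hoxc4 at 1.46 and 5.44. Each lost its call under some alternative, Hoxb2 with male-like mutant cells (1.23, 0.28 to 2.23) and Hoxa3 with female-like ones (1.94, 0.51 to 3.51).

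The globin and myeloid cluster, which was left without a cell type name, held 31.1 CPM in the control and 82.4 in the mutant library (1.40, 1.13 to 1.69). Of 5 members tested 3, all of HoxA, were higher, against 3.51% of all tested genes, and none lower against 8.7%. Hoxa9, a gene of haematopoietic progenitors, stood at 7.51 CPM in 4.02% of control cells and 43.4 CPM in 22.7% of mutant cells (35 and 217 UMIs, 2.53, 2.01 to 3.09). Hoxa7 (18 and 87 UMIs) and Hoxa3 (4 and 32) accompanied it. HoxA genes made up 62.8% of the cluster's Hox UMIs in the control and 90.3% in the mutant library. The finer cluster led by erythroid genes and Mpo (82 and 135 cells) held 47.6 and 105 CPM and the macrophage cluster (92 and 41 cells) 16.3 and 10.1, and weighted as in the control library the ratio was 0.82 in place of 1.40. Hoxa9 was called under every alternative. Hoxa3 and Hoxa7 were not beyond an even ratio in the female-like mutant cells.

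Across classes, Hoxd8 had the most repeated difference. It was lower in the mutant library in 4 of the 5 classes where it was tested, namely muscle-like (15.5 and 7.09 CPM), mesenchyme-like (15.9 and 4.19), sensory neuron-like (8.82 and 1.30) and EC-like cells (18.8 and 6.01). Its neighbour Hoxd9 was lower in 2 of 3. The HoxD cluster summed to 29.7 and 18.0 CPM in muscle-like cells (log2 ratio -0.72, -0.91 to -0.53), 57.9 and 25.1 in sensory neuron-like cells (-1.21, -1.65 to -0.77) and 34.8 and 9.56 in EC-like cells (-1.87, -2.24 to -1.49). In muscle-like and sensory neuron-like cells these sums rested on the members called lower, for without Hoxd8 and Hoxd9 the rest of HoxD stood at 10.3 and 9.76 CPM in muscle-like cells (-0.08, -0.36 to 0.20), and without Hoxd1 and Hoxd8 at 18.7 and 18.6 CPM in sensory neuron-like cells (-0.01, -0.65 to 0.65). In EC-like cells the rest, without Hoxd4, Hoxd8 and Hoxd9, was lower as well at 16 and 11 UMIs (4.93 and 0.796 CPM). The sums held in either part of the mutant library, with -0.66 in female-like and -0.69 in male-like muscle-like cells, -1.77 and -0.86 in sensory neuron-like cells, and -1.82 and -1.81 in EC-like cells. Mesenchyme-like cells were less steady, for the ratio of -0.27 split into -0.69 and -0.04 (-0.22 to 0.13), and without Hoxd8 and Hoxd13 the rest stood at 57.9 and 61.3 CPM. Neuron-like cells went the other way at 47.3 and 62.2 CPM (0.40, 0.07 to 0.74), with -0.01 in female-like and 0.91 in male-like mutant cells. HoxD was also higher in lung/foregut mesenchyme-like cells, at 9 and 19 UMIs (1.01 and 6.37 CPM, 2.65, 1.44 to 3.98), and had 0 and 5 UMIs in mesothelium-like cells. The lung/foregut value includes the EC-named cells, which made up 15 of 369 control and 53 of 133 mutant cells. A HoxD ratio without them is not given.

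Group 9 genes of the other clusters did not share 1 sign. Hoxb9 was higher in the mutant library in all 3 classes tested, though in lung/foregut mesenchyme-like cells on 1 cell, and Hoxa9 in 3 of 7, with a ratio below 0 in sensory neuron-like (-0.85) and EC-like cells (-1.09). Hoxc9 was tested in neuron-like cells alone, where it stood at 27.6 and 13.4 CPM (-1.04, -1.58 to -0.51) without being called. Hoxc4 was called higher in 2 of 7 classes and had a ratio above 0 in 7 of 7. Hoxa5 was lower in 2 of 9 classes, and Hoxb5 in 2 of 6. Of the 35 called pairs, 10 were called under every alternative, 4 higher and 6 lower. They were Hoxd8 in EC-like and mesenchyme-like cells, Hoxd9 and Hoxd1 in muscle-like cells, Hoxd1 in sensory neuron-like cells, Hoxb5 and Hoxb6 in lung/foregut mesenchyme-like cells, Hoxb9 and Hoxc6 in neuron-like cells and Hoxa9 in the globin and myeloid cluster. Of the 35 pairs, 32 kept their sign with female-like and with male-like mutant cells, and 29 lay beyond an even ratio in both. These included all 18 lower pairs and 11 of the 17 higher ones. Both parts belong to the mutant cells from which the pairs were called and were set against the same control cells. Agreement in sign is therefore partly built in and is not independent support. The 3 pairs without the same sign were Hoxc4, Hoxc5 and Hoxb9 in lung/foregut mesenchyme-like cells, which had 0 UMIs in the 27 female-like mutant cells.

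The code was also read cell by cell at an equal depth of 5000 randomly drawn UMIs per cell, which 61 control and 173 mutant cells did not have. A Hox UMI was found in 49.9% of control and 34.6% of mutant cells, beside 6.38% of hepatoblast-like cells. By class the share was 95.3% (92.7 to 97.3) and 57.03% (48.0 to 65.7) in lung/foregut mesenchyme-like (EC-named cells included), 70.8% and 62.2% in mesenchyme-like, and 64.3% and 46.2% for mesothelium-like cells. It was 51.6% and 36.8% for sensory neuron-like, 45.5% and 41.9% for neuron-like, 36.5% and 33.0% for muscle-like and 36.1% and 24.4% for EC-like cells. Cardiomyocyte-like cells, at 5.56% and 7.87%, lay near the share of the hepatoblast-like cells (1.34 to 17.5), a cluster of the mutant library alone. By summed level at full depth the control cardiomyocyte-like cells lay above that cluster, at 55.4 against 15.9 CPM. At full depth the shares were higher, for example 99.2% and 72.2% in lung/foregut mesenchyme-like and 54.0% and 49.1% in neuron-like cells, and the mutant cells were shallower. Many neuron-like cells had no Hox UMI while others had many. After thinning 20.7% of control and 28.6% of mutant neuron-like cells had UMIs of at least 5 Hox genes, against 5.78% and 7.69% of mesenchyme-like cells.

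Some pairs of genes of the same or adjacent groups were often seen in the same cells. No pair of distant groups was looked at, so the shares cannot tell neighbouring groups from any other Hox genes. The pairs named are examples, and others did not pair. In control sensory neuron-like cells Hoxb5 was found in 0% of Hoxa5-positive and 10.7% of the other cells. In control mesothelium-like cells Hoxb4 was found in 10% of Hoxa4-positive and 15% of the other cells. Of thinned neuron-like cells with a Hoxb8 UMI, 57.9% in the control (11 of 19) and 68.7% in the mutant library (46 of 67) also had a Hoxb9 UMI, against 0 and 0.392% of those without Hoxb8. Hoxb5 and Hoxb6 behaved alike, with Hoxb6 in 66.7% and 68.6% of Hoxb5-positive neuron-like cells against 6.42% and 9.23% of the others. In mesenchyme-like cells the limb genes paired in the same way, for Hoxd11 was found in 38.3% and 48.6% of Hoxa10-positive cells against 2.94% and 2.70%. Hoxa10 in turn was found in 45.5% and 64.3% of Hoxa9-positive cells against 7.59% and 4.19%. The pairing was looser in muscle-like cells, where Hoxa10 was found in 16.9% and 24.7% of Hoxa9-positive cells against 3.44% and 3.54%. In lung/foregut mesenchyme-like cells Hoxb5 was found in 61.7% of Hoxa5-positive and 55.7% of the other control cells, and in 48.4% and 5.15% of the mutant cells, EC-named cells included. These shares are descriptions of cells that share a library.

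Mesenchyme-like cells were also ordered by the most caudal Hox group with a UMI at full depth, meaning the highest-numbered group. For groups 10 to 13, which the limb uses again, this is not read as an axial level. Some patterning genes that the grouping had not used differed along this order. The genes named are examples from the lists, and how many list members kept or broke the order is not given. The limb mesenchyme list was added after the values were seen. Cells without a Hox UMI (105 control, 152 mutant) had the most Alx1, a frontonasal gene, at 73.1 and 187 CPM, and cells of groups 10 to 13 (120 and 73) had 10.3 and 10.8. Barx1, a gene of the maxillary and mandibular mesenchyme, stood at 94.3 and 43.9 CPM in the former and 9.87 and 10.8 in the latter. Tbx5, which is required for forelimb outgrowth, lay the other way at 4.65 and 1.48 CPM without a Hox UMI and 120 and 153 in groups 10 to 13. The limb genes Shox2 (17.3 and 19.7, then 109 and 212 CPM) and Lhx9 (0.664 and 0.987, then 21.7 and 37.5) shared that order. The Hox cofactor Meis1 peaked in between. Meis1 stood at 482 and 406 CPM in cells whose most caudal gene was of groups 4 and 5, against 88.0 and 60.1 in groups 10 to 13. Cells with a more caudal gene were also deeper in the control library, with a median of 12451 UMIs without Hox and 19980 in groups 10 to 13, and not in the mutant library (12378 and 12248).

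**Figure D5:**
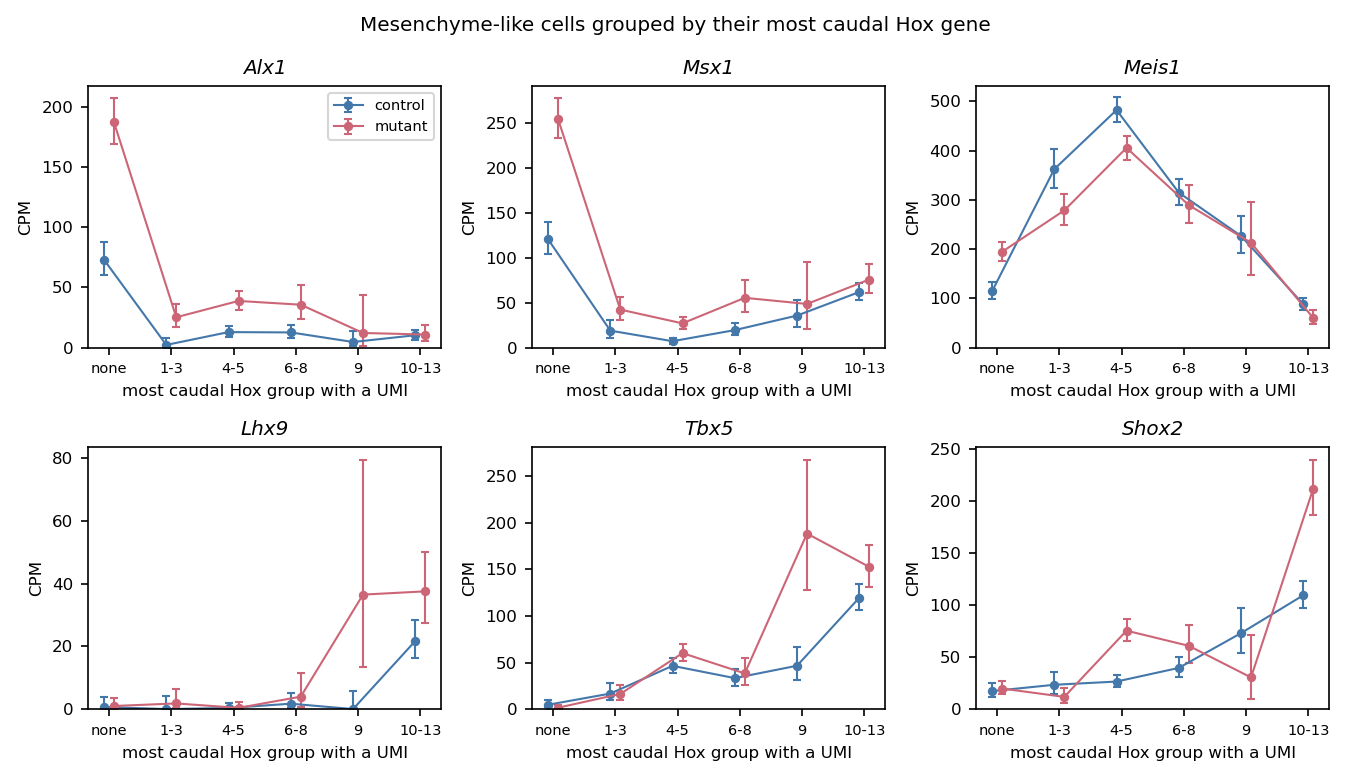
CPM of Alx1, Msx1, Meis1, Lhx9, Tbx5 and Shox2, with 95% Poisson intervals, in mesenchyme-like cells grouped by the most caudal Hox paralogue group with a UMI, in the control and mutant library. Alx1 is highest without a Hox UMI, Meis1 peaks at groups 4-5, and Lhx9, Tbx5 and Shox2 are higher at groups 10-13 than without a Hox UMI, while the group 9 points of the mutant library rest on 10 cells.

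Neuron-like and muscle-like cells were ordered in the same way, and the genes named are again examples. How many list members kept or broke the order is not given here either, nor is the depth of these groups of cells. The muscle and limb lists were added after the values were seen. Neuron-like cells without a Hox UMI (58 control, 171 mutant) held the forebrain gene Six3 at 185 and 126 CPM, against 0 and 3.15 CPM in cells reaching group 9, and Lhx2 at 169 and 107 against 0 and 18.9. Lbx1, a gene of dorsal spinal cord interneurons, lay the other way at 0 and 1.69 CPM without Hox and 36.7 and 59.8 CPM with group 9, and Gbx2 at 2.02 and 5.90 and then 10.5 and 147. Rarb, a retinoic acid receptor gene, stood at 30.3 and 6.74, then at 81.2 and 187 CPM. Muscle-like cells without a Hox UMI numbered 330 and 404 and those reaching groups 10 to 13 numbered 178 and 160. The branchiomeric gene Tcf21 stood at 15.1 and 41.2 CPM in the former and 1.83 and 1.55 in the latter, and Tbx1 at 30.4 and 54.5, then 6.05 and 13.3. Lbx1, which marks migrating limb muscle precursors, stood at 1.28 and 2.03 CPM, then at 23.1 and 29.7, and Pax3 at 1.15 and 1.08, then at 3.85 and 22.4.

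Genes that work with or on the Hox genes were counted by the same rule as the members and against the same shares of all tested genes. Of the 9 TALE cofactors, which bind DNA beside Hox proteins, Meis2 was higher in the mutant library in 5 classes and lower in 2. It stood at 27.7 and 105 CPM in muscle-like, 182 and 354 in lung/foregut mesenchyme-like (EC-named cells included) and 309 and 645 in neuron-like cells, but at 250 and 94.1 in EC-like cells. None of the cofactors was called in mesenchyme-like cells. Among 15 regulators upstream of Hox genes, Gbx2 was higher in neuron-like cells (4.21 and 47.9 CPM) and Gata3 lower (90.3 and 41.4). In mesenchyme-like cells 3 of 10 tested were higher, among them the retinoic acid degrading enzymes Cyp26a1 (2.43 and 17.2 CPM) and Cyp26b1 (10.0 and 41.5). In muscle-like cells 5 of 10 were higher, with the retinoic acid receptor gene Rarb at 15.9 and 34.3. Other classes lay the other way. In epithelium-like cells none of 11 was higher and 3 were lower, Aldh1a2, an enzyme that makes retinoic acid, at 65.3 and 3.99 CPM, Egr2 at 26.3 and 7.97 and Gata3 at 48.9 and 14.9. In the globin and myeloid cluster none of 8 was higher and 5 were lower, led by Gata2 at 147 and 48.4 CPM and Egr2 at 73.2 and 11.4. The 20 Polycomb and Trithorax genes, which keep Hox genes silent or active, had at most 1 call in a class, of which Jarid2 in EC-like cells (1174 and 386 CPM, lower) was the most abundant.

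Of 19 genes of Hox-free rostral territories, mesenchyme-like cells had 4 higher and 1 lower among 16 tested, with Alx1 at 19.6 and 70.0 CPM, and lung/foregut mesenchyme-like cells, EC-named cells included, 5 higher among 6. Limb mesenchyme genes (2 higher and 1 lower of 7 tested in mesenchyme-like cells), somite and limb muscle genes (2 higher of 5 in muscle-like cells) and branchiomeric muscle genes (1 higher of 6 in muscle-like cells) were lists added after the values were seen. There are 17 other genes within the Hox clusters, mostly non-coding. Hoxb5os, antisense to Hoxb5, was lower with it in lung/foregut mesenchyme-like cells, EC-named cells included, at 25.03 and 5.70 CPM. Hotairm1, a non-coding gene of the HoxA cluster, was higher in muscle-like (5.54 and 11.5 CPM) and epithelium-like cells (5.84 and 31.0). Haglr, next to Hoxd1, was lower in sensory neuron-like cells at 16.5 and 4.24 CPM, as was Hoxd1. None was called in mesenchyme-like or neuron-like cells. Counts of overlapping genes may be shared. In the annotation 4 members share exonic bases on the same strand with another Hox gene, with Hoxd3 and Hoxd4 sharing 388 bases, and 10 overlap an antisense exon, of which Hoxb3 has 52.9% of its exonic bases covered.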

How the data were processed

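Single-cell RNA-seq (10x Genomics 5′) of eYFP-sorted cells was deposited as gene by cell tables of UMI counts, which the authors made with Cell Ranger 7.1.0 on mm10. From these deposited counts, cells with 2001 to 8999 genes and under 10% mitochondrial UMIs were kept (2783 control, 3489 mutant, medians of 20412 and 16839 UMIs). Libraries were integrated by canonical correlation in Seurat 5.3.0 (R 4.3.3; 2000 variable genes without 125 Hox, list and sex-linked genes, 30 components, 20 neighbours) and clustered at resolution 0.3 (15 clusters). Finer clusters were taken at 0.8 (26). Clusters were named by markers raised at least 2-fold (log2 of 1.0 or more, at least 3 markers). Scrublet (scanpy 1.11.5) called 0 and 1 doublets, so it had not worked and no cell was removed; leaving out the 73 and 123 highest-scoring cells was an alternative.

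For each class of a library, UMIs were added up and scaled to 1000000 UMIs of that class (CPM). Levels have exact Poisson intervals, shares Clopper-Pearson intervals and ratios conditional exact binomial intervals, all at 95% (scipy 1.17.1, Python 3.11.15) and all covering counting error only. With 1 library per genotype no replicate spread exists. A gene was called beyond 1.5-fold by the whole interval, with at least 20 UMIs. A gene at 0 was compared with a floor of 3 counts. On simulated counts for the neuron-like class (12740 genes) 98% of genes changed 4-fold and 45.1% of those changed 2-fold were called, and 0.032% of unchanged genes. The simulated counts were Poisson draws without any spread between cells or embryos, which is what the intervals assume. These shares therefore check the calculation and do not measure the error of calls in the real libraries. Named genes were the 6 most abundant members of a class and every called member. Members, classes, markers and lists were chosen with earlier results of these data known, and 3 lists (somite and limb muscle, branchiomeric muscle, limb mesenchyme) were added later. Alternatives changed the scaling (edgeR 4.0.16 TMM factors, median ratio), the weighting of cells, the classes, the filters, the depth (5000 UMIs per cell) and the sex-linked split. Coordinates are from GENCODE vM21 (GRCm38) and promoter windows from RefSeq (GRCm38.p6). Expression is from pools of 3 embryos, and in summed counts fewer cells expressing a gene and less RNA per cell cannot be told apart except by the shares of cells given. Values of some genes are not reported here, although they are part of the sums and counts.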

Additional observations from a re-analysis of the deposited data

Results flagged for a closer look

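Summed Hox levels lay in opposite directions in different classes under the same contrast. The log2 ratio of mutant over control was higher in muscle-like (0.31), neuron-like (0.49) and epithelium-like cells (1.05) and in the globin and myeloid cluster (1.40). It was lower in lung/foregut mesenchyme-like (-0.93), EC-like (-0.65) and cardiomyocyte-like cells (-1.69). The lung/foregut value was -0.47 without the EC-named cells. The cardiomyocyte-like value had no stable direction (0.60 after thinning to equal depth, 0.72 with the 12 female-like mutant cells). Each class had 1 library per genotype, so the differences between classes were not tested.

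In all 3 members were called in opposite directions in a pair of classes, which was not tested either. Hoxa2 had a log2 ratio of -1.12 in lung/foregut mesenchyme-like and 2.60 in sensory neuron-like cells. Hoxb2 had -0.95 in lung/foregut mesenchyme-like and 1.5 in epithelium-like cells. Hoxd1 had 1.71 in muscle-like and -2.54 in sensory neuron-like cells. Without the EC-named cells of the lung/foregut mesenchyme-like class Hoxa2 (-0.58) and Hoxb2 (-0.47) were not called there.

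The hepatoblast-like cluster, present only in the mutant library and used in no comparison, held 15.9 CPM of Hox RNA (10.8 to 22.7, 30 UMIs), with Hoxa7 highest at 3.19 CPM.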

How the results depend on the processing

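No paired analysis was possible because each genotype was 1 library and no result comes from a test. For all ratios of summed Hox levels, removing the 28 shared barcodes and scaling by median ratios moved none beyond its interval; TMM scaling moved the median gene by 0.14 in neuron-like, 0.15 in cardiomyocyte-like, 0.12 in EC-like and -0.12 in mesothelium-like cells and the neuron-like ratio to 0.63. Among single-gene levels, computed for the 35 called pairs alone, 350 of 414 alternative values moved by less than counting error, 64 moved and 0 reversed. These pairs were chosen for a large ratio and a gene at 0 was given the floor of 3 counts. The lack of reversals was thus largely set by the selection. The cause of the changes below was not tested. The 3 alternatives with male-like mutant cells, with female-like mutant cells and without the EC-named cells were, like the removal of shared barcodes, chosen after seeing the data. Pairs called higher (17) numbered 28 with classes taken from marker counts per cell and 6 with at least 100 UMIs; pairs called lower (18) numbered 11 without integration and 9 with male-like mutant cells. Weighting each cell equally gave -0.95 in cardiomyocyte-like, 2.16 in globin and myeloid, -1.09 in lung/foregut mesenchyme-like, 0.58 in neuron-like, 0.33 in sensory neuron-like and -0.56 for mesothelium-like cells. Thinning to 5000 UMIs gave 0.60 (reversed) in cardiomyocyte-like, 1.49 in epithelium-like, 1.85 in globin and myeloid, 0.13 in mesenchyme-like, 0.14 in muscle-like, -0.52 for mesothelium-like, 0.58 for neuron-like and 0.37 in sensory neuron-like cells. Without the highest Scrublet scores the ratio was -0.50 in cardiomyocyte-like, 1.98 in globin and myeloid and -1.04 in lung/foregut mesenchyme-like cells. Classes from marker counts gave -0.45 in EC-like, -0.29 in cardiomyocyte-like, -0.71 in lung/foregut mesenchyme-like, 0.43 in muscle-like and 0.16 in sensory neuron-like cells. With finer clusters weighted as in the control the ratio was 0.82 in globin and myeloid, -0.38 in lung/foregut mesenchyme-like, 0.35 in neuron-like and -0.20 in sensory neuron-like cells. In lung/foregut mesenchyme-like cells it was -0.24 without integration, -0.46 with classes at resolution 0.8 and -0.47 without the EC-named cells. With mitochondrial UMIs under 5% globin and myeloid stood at 1.07. With female-like cells of both libraries the ratios were -0.84 in EC-like, -1.003 in cardiomyocyte-like, 0.59 in globin and myeloid, -3.52 in lung/foregut mesenchyme-like, -0.50 in mesenchyme-like, -1.02 in mesothelium-like, 0.63 in muscle-like, 0.13 in neuron-like and 0.16 in sensory neuron-like cells. With female-like mutant cells against all control cells they were -0.91, 0.72 (reversed), 0.62, -3.52, -0.48, -0.998, 0.61, 0.14 and 0.16 in the same order. With male-like mutant cells they were -2.90 in cardiomyocyte-like, -0.63 in lung/foregut mesenchyme-like, 0.24 in mesenchyme-like, 0.29 in mesothelium-like, 0.11 in muscle-like and 0.91 in neuron-like cells. Depth limits members under 20 UMIs in a class, for which no difference could be called.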
